A study of Homo sapiens with 2 samples.

Results

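The 71 genes described here encode the Mediator complex, the TBP-associated factors (TAFs) and the general transcription factors of RNA polymerase II. They were taken by name from a deposited table of 14914 features: symbols that start with MED or TAF and a digit or with GTF2, and TBP, CCNC, CDK8 and CDK19. TAF15, hyphenated names and names of pseudogene form were left out, 6 features in all. By role, 33 of the 71 belong to Mediator, 15 to TFIID, 13 to TFIIA, TFIIB, TFIIE, TFIIF and TFIIH, 4 to SL1, 2 are TAF variants of the SAGA coactivator and 4 form the TFII-I family. All 71 are protein-coding in GENCODE release 29 (GRCh38).

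The study asked which RNAs associate with CSTF2 in HUH7, an established line of human hepatocellular carcinoma. CSTF2 contacts RNA on behalf of the cleavage stimulation factor, part of the machinery that cuts and polyadenylates pre-mRNA. RNA recovered with CSTF2 by RNA immunoprecipitation (the IP) and input RNA (the Input) were each sequenced as 1 library. The labels give the same line for both and no treatment, genotype change or time, and they name neither an antibody nor a mock precipitation. Since each group is 1 library, no replicate check and no test can be made. Every difference describes these 2 libraries. The values are shares of a library, so more of a transcript and less of the others cannot be told apart.

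Mediator relays signals from DNA-bound activators to RNA polymerase II. It has a head, a middle and a tail joined by the scaffold MED14, and a kinase module that can dissociate. TFIID, made of TBP and the TAFs, recognises the core promoter, after which TFIIA, TFIIB, TFIIF with the polymerase, TFIIE and TFIIH complete the preinitiation complex. These genes are expressed in nearly every cell type, usually at modest mRNA levels.

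Values are RPKM, reads scaled to exon length and to library depth, and the bracketed ranges are 95% intervals from the recovered reads. They cover counting error only, and they treat reads as independent molecules, which PCR copies and mates of a pair are not. Most recovered counts of these genes are even numbers. Whether both mates of a pair were counted was not established here. If they were, the intervals are too narrow, and bounds close to equality could cross it. The IP held 3220045 assigned reads and the Input 9517885, so the Input is the better covered library. The CSTF2 mRNA itself had 487 RPKM in the IP against 6.97 in the Input (3429 and 145 reads). All 13 hepatocyte markers chosen for the line, among them ALB and AFP, were listed above 0, with a summed level of 1284 RPKM (IP) and 1189 RPKM (Input). Of 6 blood markers, CD14 and LYZ were listed, and of 7 markers of stroma and endothelium, COL1A2 and COL3A1, with sums of 5.31 and 2.16 RPKM (IP) and 6.67 and 1.22 RPKM (Input). PTPRC, COL1A1 and PECAM1 were not in the table used here.

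The 71 genes were low in both libraries. Their levels ran from 0.0984 to 62.8 RPKM in the IP, with a median of 2.51, and from 0 to 30.4 RPKM in the Input, with a median of 1.95. Together they held 3936 IP reads, 0.122% of that library (Wilson interval 0.118 to 0.126), and 9481 Input reads, 0.0996% (0.0976 to 0.102). The ratio of the shares was 1.23 (1.18 to 1.27), and 1.14 (1.09 to 1.19) without GTF2F1, the most abundant member. For all nuclear protein-coding features the same ratio was 1.15. That value lies below the interval of the 71 genes and inside the interval without GTF2F1.

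Differences between the libraries were judged on log2((IP + 1)/(Input + 1)) where the mean of both libraries reached 1 RPKM, on a scale which understates the change of low genes. Of the 71 genes, 56 passed, and 4 of these exceeded the Input at least 2-fold in the IP: TAF1, TAF13, GTF2F1 and MED18. Among all 9880 features that passed, 9.88% were higher by that much. CCNC was the 1 gene at least 2-fold lower, against 6.83% of all features. The median log2 ratio was 0.17 for the 56 genes and 0.17 for all features. Shifted by that median of all features, TAF1 alone stayed 2-fold higher, and CCNC, GTF2H1, MED4 and TAF9 were 2-fold lower, against 6.92% and 9.55% of all features. The genes as a group thus lay where the whole table lay, and the account below is of how single subunits differ from one another.

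By the counting interval of the plain RPKM ratio, 21 of the 56 were above 1 (36.1% of all features) and 7 below 1 (20.1%), and 28 intervals included 1. The interval lay wholly beyond 2-fold higher for MED12, TAF1 and TAF4 (6.76% of all features) and beyond 2-fold lower for 0 of the 56 (2.87%). Over all 71 genes, without the filter, 25 intervals were above 1, 11 below and 35 included 1, which is 35.2%, 15.5% and 49.3%, against 34.3%, 15.3% and 50.4% of all 14914 features. These shares are near the background in both directions. Of the 56, 9 passed the filter with less than 1 RPKM in the Input, TAF1, MED12 and MED18 among them, and 1, TAF5, with less than 1 RPKM in the IP.

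**Figure D1:**
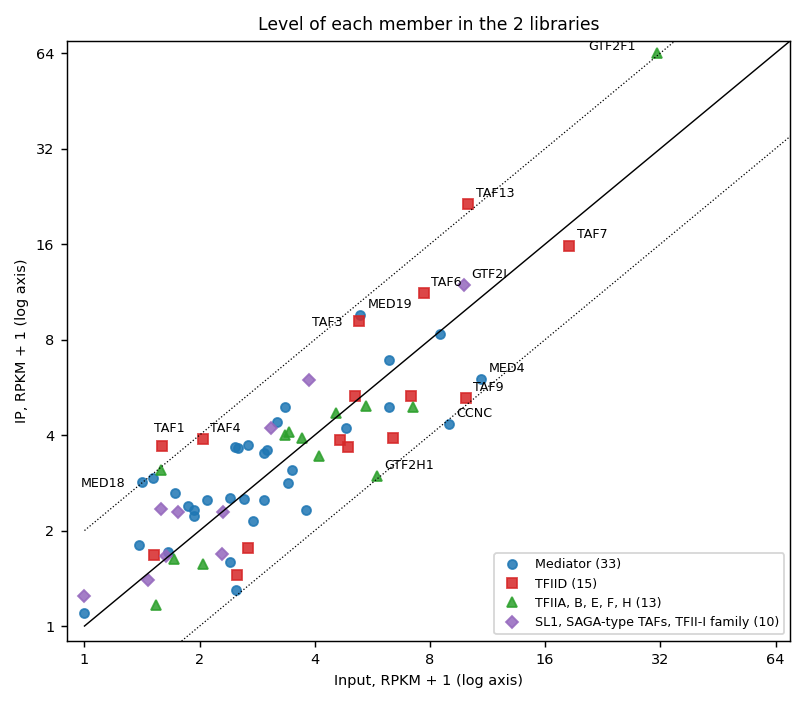
Level of each of the 71 genes in the Input (horizontal) and the IP (vertical), as RPKM + 1 on log axes, 1 point per gene and 1 library per axis, with shape and colour by complex. The solid line marks equal levels and the dotted lines 2-fold differences; GTF2F1 at 62.8 and 30.4 RPKM and TAF13 lie at the upper dotted line, CCNC at the lower one, and most genes lie between.

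CSTF2 acts where a transcript is cleaved, so the last 30 bases of the annotated transcript are shown for the TFIID and TFIIF subunits whose values are set side by side below. Capitals mark every copy of the polyadenylation signal AATAAA or its common variant ATTAAA, overlapping copies included, read 5' to 3' on the transcript strand from GENCODE transcripts (GRCh38).
TAF4 (chr20:61974798-61974827, minus strand): actcctttATTAAAaacaaatttatctgta
TAF12 (chr1:28603101-28603130, minus strand): ttgcttttccagAATAAAgaagttattaat
TAF6 (chr7:100107079-100107108, minus strand): ccagtttctcagAATAAAagtttggtttgt
TAF9 (chr5:69364744-69364773, minus strand): tgtaagaaaAATAAAgttgtcattcattcg
TAF13 (chr1:109064140-109064169, minus strand): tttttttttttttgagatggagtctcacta
TAF11 (chr6:34877778-34877807, minus strand): gagtgatcATTAAActgttttccaacttgc
TAF3 (chr10:8016598-8016627, plus strand): gaagtgcaaAATAAAgattattggctattt
TAF10 (chr11:6610842-6610871, minus strand): gttttcatAATAAActttattgtgacaggc
GTF2F1 (chr19:6379569-6379598, minus strand): tctcAATAAATAAAaaataatAATAAAttg
GTF2F2 (chr13:45284880-45284909, plus strand): tctgagtaaagaaagtgttcccattcccca
A signal stands in 8 of these 10 ends, and TAF13 and GTF2F2 have neither hexamer in this window. In the pairs TAF4 and TAF12, TAF6 and TAF9, and TAF3 and TAF10, both ends carry a signal. In the pairs TAF13 and TAF11, and GTF2F1 and GTF2F2, only TAF11 and GTF2F1 carry one. The ends shown for TAF4, TAF12, TAF10, TAF13 and TAF11 lie inside the annotated gene, before its last base. Those of TAF6 and TAF9 stop only a short way before it. The part of the signal in the IP ratios was not tested. Over the 56 genes, 27 ends held AATAAA (48.2%) and 6 ATTAAA alone (10.7%), against 54.4% and 13.1% of 7596 listed features with such a transcript. A missing hexamer says only that these letters are not in the last 30 bases of the chosen transcript.

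In TFIID, 5 of 15 genes had intervals above 1 and 4 below, against 34.3% and 15.3% of all features without the filter. TAF1, its largest subunit and a bromodomain protein, had 2.69 RPKM in the IP against 0.5901 in the Input (94 and 61 reads). The ratio was 4.55 (3.27 to 6.39), the highest of the 71 on the pseudocount scale. The gene lies at chrX:71366239-71532374 on GRCh38, and the exons counted span 10860 bases. TAF13 had 20.4 RPKM in the IP against 9.08 in the Input (92 and 121 reads), a ratio of 2.25 (1.69 to 2.97), from the shortest exon length of all 71 genes, 1400 bases. These 2 genes differ widely in length, and both passed 2-fold in the IP.

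TAF4, a scaffold that activators contact, had 2.88 RPKM in the IP against 1.04 in the Input (91 and 97 reads) and a ratio of 2.77 (2.06 to 3.73). TAF3, whose PHD finger reads a methylated histone tail, had 8.16 RPKM in the IP against 4.23 in the Input (128 and 196 reads) and a ratio of 1.93 (1.53 to 2.42). TAF6 had 10.2 RPKM in the IP against 6.71 in the Input (134 and 261 reads) and a ratio of 1.52 (1.22 to 1.88). These 3 were higher in the IP beyond counting error but less than 2-fold on the pseudocount scale. TAF6 shares 1010 exon bases on the other strand with AP4M1, which had 71 and 62 reads, and the protocols do not say that strand was kept.

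In the other direction stood 4 TFIID genes. TAF9 had 4.22 RPKM in the IP against 8.93 in the Input (35 and 219 reads), a ratio of 0.472 (0.321 to 0.677). TAF12 had 2.92 RPKM in the IP against 5.39 in the Input (22 and 120 reads), a ratio of 0.542 (0.327 to 0.859). TAF5, the WD40-repeat subunit, had 0.7602 RPKM in the IP against 1.67 in the Input (8 and 52 reads), a ratio of 0.455 (0.187 to 0.964). TAF9B, a close relative of TAF9, fell below the filter with 4 and 40 reads and had a ratio of 0.296 (0.0768 to 0.818). TAF9 and AK6 share 530 exon bases on the same strand, and AK6 had 38 and 301 reads with a ratio of 0.373, so the values of TAF9 and AK6 are not independent.

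The remaining TFIID genes had intervals that include 1. TBP, the subunit that binds the TATA box, had 2.68 RPKM in the IP against 3.898 in the Input (20 and 86 reads) and a ratio of 0.687 (0.4001 to 1.13). TAF7, which binds TAF1 and was the most abundant TFIID gene in the Input, had 14.8 RPKM in the IP against 17.5 in the Input (130 and 454 reads) and a ratio of 0.846 (0.691 to 1.03). TAF2, TAF8, TAF10 and TAF11 had ratios of 0.778, 1.29, 1.06 and 0.707, with TAF8 below the filter. The median log2 ratio of the 13 TFIID genes that passed was -0.23, below that of all features, although the summed reads of all 15 gave a ratio of 1.21 (1.12 to 1.30). The median and the ratio of summed reads thus lay on opposite sides of equality.

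Several TAFs pair through histone folds, and 5 such pairs were set side by side after the values were seen, as a description. In the pairs of TAF4 and TAF6 one partner had an interval above 1 and the other below 1, while the intervals of TAF8, TAF10 and TAF11 include 1. The IP ratio of TAF4 was 5.12 times that of its partner TAF12, and that of TAF6 was 3.21 times that of TAF9. TAF13 stood 3.18 times above TAF11, and TAF3 1.82 times above TAF10. The counting intervals of the partners did not overlap in these 4 pairs, in which the higher gene is named first. How often other gene pairs lack overlap was not counted, so this cannot be called a trait of histone-fold partners. TAF8, the other partner of TAF10, was 1.21 times above it, with overlapping intervals. In the pairs of TAF4, TAF6 and TAF3 the gene with the longer main transcript was the higher one, at 4628 against 1359 bases, 2727 against 1461 bases and 4872 against 1215 bases. In the pair of TAF13 it was the shorter one, at 813 against 1580 bases. By the exon length behind the RPKM values, TAF3 was also the shorter of its pair, at 4872 against 6103 bases for TAF10. The order in the pairs of TAF4, TAF6 and TAF13 was the same by both lengths. TAF10 shares 2374 exon bases on the other strand with ILK, which had 82 and 206 reads, TAF9 shares 380 with RAD17 and TAF11 185 with UHRF1BP1.

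**Figure D2:**
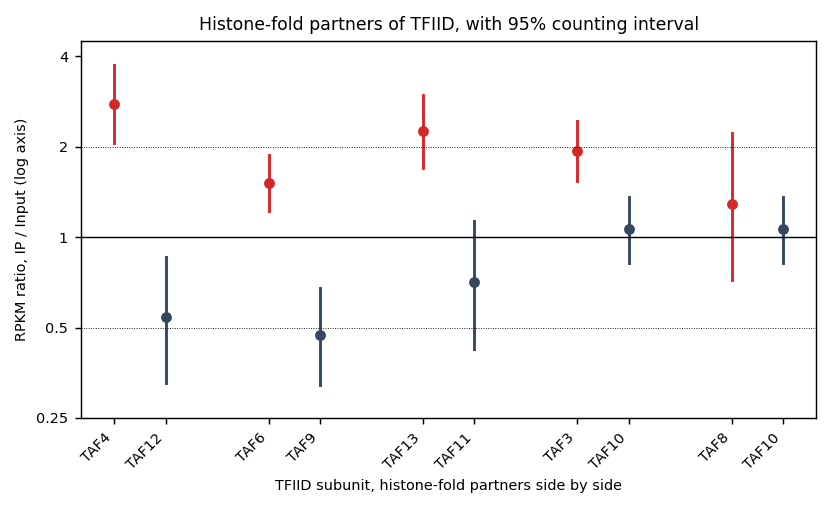
RPKM ratio of IP over Input (log axis) for TFIID subunits that pair through histone folds, with points for the ratio in these 2 libraries and bars for the 95% counting interval. TAF4, TAF6, TAF13 and TAF3 (first of each pair) lie above their partners without overlap, from 2.77 against 0.542 for TAF4 and TAF12 to 1.93 against 1.06 for TAF3 and TAF10, while TAF8 and TAF10 overlap.

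Among the other general transcription factors, GTF2F1 was the one at least 2-fold higher. It encodes the large subunit of TFIIF, which escorts the polymerase to the promoter, and lies at chr19:6379569-6393981 on GRCh38. It had 62.8 RPKM in the IP against 30.4 in the Input (634 and 907 reads), a ratio of 2.07 (1.86 to 2.29), from the most reads of the 71 genes. The small subunit GTF2F2 had 2.92 RPKM in the IP against 2.700 in the Input (34 and 93 reads) and a ratio of 1.08 (0.707 to 1.62). The subunits of TFIIF therefore differed 1.91 times in their IP ratio, without overlap of the intervals, and the level of GTF2F1 was far above that of GTF2F2 in both libraries. No other annotated exon overlaps GTF2F1.

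The paired subunits of TFIIA and TFIIE did not part in this way. GTF2A1 had 3.01 RPKM in the IP against 2.34 in the Input (66 and 152 reads), and GTF2A2 had 3.102 RPKM in the IP against 2.43 in the Input, with ratios of 1.28 (0.946 to 1.72) and 1.28 (0.817 to 1.96). GTF2E1 and GTF2E2 had ratios of 1.04 (0.705 to 1.499) and 0.887 (0.582 to 1.32). All 4 intervals include 1. GTF2B, the single-subunit factor that bridges promoter and polymerase, had 3.91 RPKM in the IP against 6.23 in the Input (28 and 132 reads), a ratio of 0.627 (0.401 to 0.948), lower in the IP beyond counting error.

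TFIIH opens the promoter and phosphorylates the polymerase, and 3 of its 6 listed GTF2H genes had intervals below 1, against 15.3% of all features without the filter. GTF2H1, a core subunit, had 1.97 RPKM in the IP against 4.800 in the Input (44 and 317 reads), a ratio of 0.4103 (0.292 to 0.564). GTF2H2 and GTF2H5 were below the filter with 16 and 86 reads and 4 and 38 reads and ratios of 0.5499 (0.301 to 0.945) and 0.311 (0.0807 to 0.864). GTF2H3 and GTF2H2C had ratios of 0.876 (0.344 to 1.98) and 0.789 (0.575 to 1.07). GTF2H2 and GTF2H2C are near-identical copies on chromosome 5, so the split of reads between them is uncertain. The summed reads of the 6 listed GTF2H genes, 143 and 687, gave a ratio of 0.615 (0.510 to 0.738).

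GTF2H4 was the exception in TFIIH, at 2.11 RPKM in the IP against 0.5805 in the Input (16 and 13 reads) and a ratio of 3.64 (1.64 to 8.22). However, 79.0% of its exon bases also belong to VARS2, which lies on the same strand and had 24 and 31 reads with a ratio of 2.29, so the value cannot be given to GTF2H4 alone. The TFIIH subunits outside the name rule were read from a fixed list. CDK7, the kinase of the complex, had 1.03 RPKM in the IP against 5.47 in the Input (8 and 126 reads), a ratio of 0.188 (0.0793 to 0.381), and was the only one of 5 at least 2-fold lower. Its partner MNAT1 had a ratio of 0.455 (0.269 to 0.732), while cyclin H (CCNH), at 1.27 (0.833 to 1.89), the translocase ERCC3, at 1.33 (0.977 to 1.79), and the helicase ERCC2, at 0.537 (0.244 to 1.06), had intervals that include 1.

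**Figure D3:**
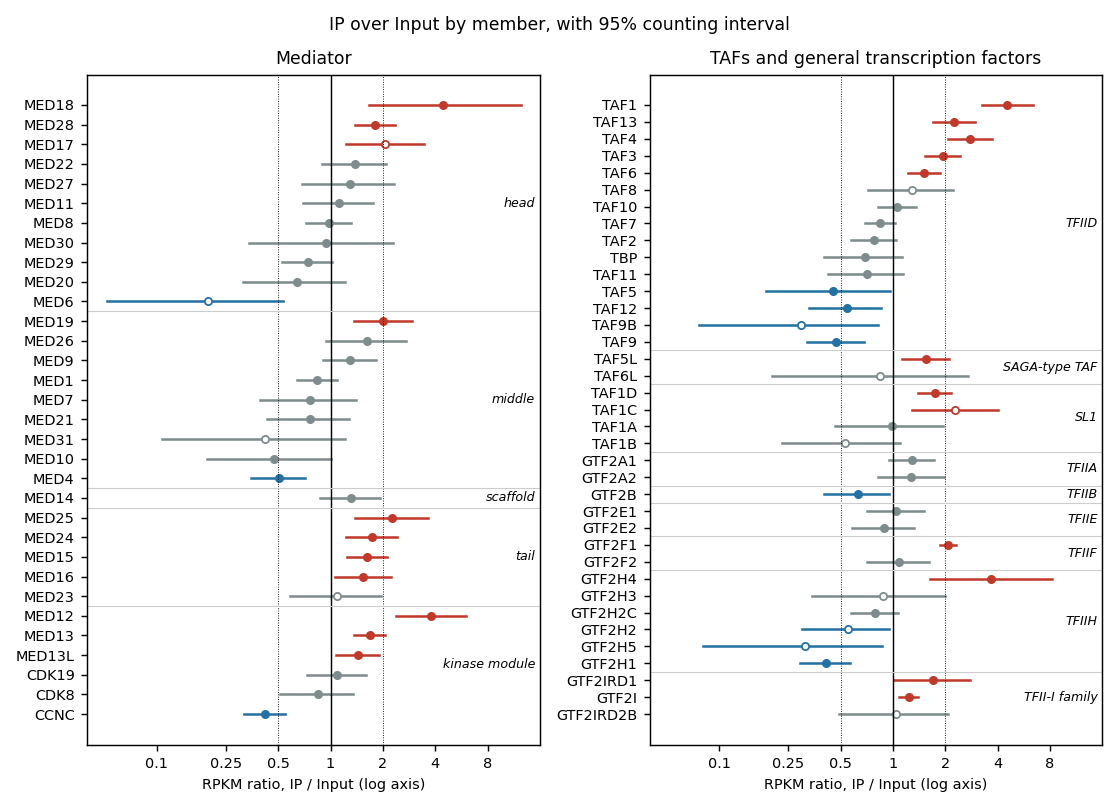
RPKM ratio of IP over Input (log axis) for 69 of the 71 genes by complex and module, with 95% counting intervals; MED12L and GTF2IRD2, at 0 reads in the Input, are not drawn. Red intervals lie above 1, blue below 1 and grey include 1. Open circles are genes with a mean under 1 RPKM, and dotted lines mark 0.5 and 2. The 4 filled tail subunits lie above 1, and TFIID runs from TAF1 at 4.55 to TAF9B at 0.296. CCNC has the only interval of the kinase module below 1, which overlaps that of CDK8.

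Within Mediator, 28 of 33 genes passed the filter, with a median log2 ratio of 0.23. Of these, 10 intervals were above 1, 2 below and 16 included 1, where 36.1% of all features were above 1 and 20.1% below. The modules differed in how their members lay. The summed reads gave a ratio of 1.63 (1.39 to 1.92) for the tail, 1.13 (0.997 to 1.28) for the head, 1.10 (0.982 to 1.24) for the kinase module and 0.901 (0.786 to 1.03) for the middle. Genes were assigned to modules by a fixed list that counts MED27, MED28, MED29 and MED30 as head, and no other assignment was tried. With this list, the interval of the tail did not overlap those of the other 3. These intervals count pooled reads and leave out the spread between the genes of a module. However, the kinase module without CCNC, its member of most reads, had a ratio of 1.56 (1.36 to 1.78), which overlaps that of the tail. With the member of most reads left out of each, the tail without MED15 had 1.64 (1.34 to 2.01) and the head without MED8 1.17 (1.02 to 1.35). These 2 intervals overlap narrowly, while the middle without MED1, at 0.925 (0.787 to 1.08), stayed below that of the tail. The sums without a member were added after the values were seen.

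The tail is the part that activators contact. MED25 had 1.62 RPKM in the IP against 0.721 in the Input (32 and 42 reads) and a ratio of 2.25 (1.38 to 3.65). MED24 had 2.63 RPKM in the IP against 1.52 in the Input (59 and 101 reads) and a ratio of 1.73 (1.23 to 2.404). MED15, known as a partner of the sterol-regulatory factors, had 2.72 RPKM in the IP against 1.68 in the Input (91 and 166 reads) and a ratio of 1.62 (1.24 to 2.105). MED16 had 3.38 RPKM in the IP against 2.19 in the Input (46 and 88 reads) and a ratio of 1.55 (1.06 to 2.23). All 4 were higher in the IP beyond counting error and less than 2-fold higher on the pseudocount scale. MED25 shares 1438 exon bases on the other strand with PTOV1-AS1. MED23, below the filter, had 0.712 RPKM in the IP against 0.652 in the Input (17 and 46 reads) and a ratio of 1.09 (0.587 to 1.94). MED23 was also the tail gene of lowest GC content, 41.4% in its main transcript, against 57.3% to 65.4% in the other 4.

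The kinase module ran from MED12 to CCNC. MED12, which activates the kinase, had 1.92 RPKM in the IP against 0.509 in the Input (46 and 36 reads) and a ratio of 3.78 (2.39 to 6.01). MED13, which links the module to core Mediator, had 3.92 RPKM in the IP against 2.34 in the Input (160 and 282 reads) and a ratio of 1.68 (1.37 to 2.04). CCNC, encoding cyclin C and located at chr6:99542380-99568973 on GRCh38, had 3.34 RPKM in the IP against 7.95 in the Input (62 and 436 reads) and a ratio of 0.4203 (0.317 to 0.549). Cyclin C was thus lower in the IP while the large subunits MED12 and MED13 were higher. The kinases lay between, CDK8 with 2.11 RPKM in the IP against 2.49 in the Input (24 and 84 reads) and a ratio of 0.845 (0.513 to 1.34), and CDK19 with 1.53 RPKM in the IP against 1.402 in the Input (37 and 100 reads) and a ratio of 1.09 (0.729 to 1.61).

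The paralogs of this module had overlapping intervals where both had Input reads. Those of CDK8 and CDK19 overlap, and MED13L, at 1.33 RPKM in the IP against 0.9297 in the Input with a ratio of 1.43 (1.07 to 1.899), overlaps MED13. MED12L had 4 IP reads and 0 Input reads, and the counting interval of its ratio starts at 1.95. Against MED12 it was 19.5 times lower in the IP, and part of its exons is shared with IGSF10 on the other strand. For the TAFs, TAF5 and its SAGA counterpart TAF5L differed, at 0.455 (0.187 to 0.964) and 1.55 (1.13 to 2.102) without overlap. TAF6L had 4 and 14 reads and a ratio of 0.845 (0.202 to 2.69), which overlaps TAF6, and TAF9B overlaps TAF9. TAF4B, TAF7L and GTF2A1L were not in the table used here.

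The head ranged from MED18 to MED6. MED18, of the movable jaw of the head, lies at chr1:28329002-28335967 on GRCh38 and had 1.85 RPKM in the IP against 0.416 in the Input (12 and 8 reads), a ratio of 4.43 (1.67 to 12.5), past 2-fold on few reads. MED28 had 2.66 RPKM in the IP against 1.47 in the Input (94 and 154 reads) and a ratio of 1.804 (1.38 to 2.35), and 3520 bases of its exons are shared with FAM184B on the other strand. MED17, the head scaffold, and MED6 were below the filter with 28 and 40 reads and 4 and 60 reads and ratios of 2.07 (1.23 to 3.44) and 0.197 (0.05201 to 0.531). MED8, MED11, MED20, MED22, MED27, MED29 and MED30 had ratios from 0.645 to 1.38 and intervals that include 1. MED14, the scaffold, had 1.22 RPKM in the IP against 0.936 in the Input (38 and 86 reads) and a ratio of 1.31 (0.867 to 1.93).

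In the middle, MED19 and MED4 stood at the ends on the pseudocount scale. MED19 had 8.57 RPKM in the IP against 4.26 in the Input (49 and 72 reads) and a ratio of 2.01 (1.37 to 2.93). MED4 had 5.005 RPKM in the IP against 9.89 in the Input (38 and 222 reads), the highest Input level of Mediator, and a ratio of 0.506 (0.349 to 0.716). Both differ from 1 beyond counting error in opposite directions. MED4 shares 307 exon bases on the other strand with MED4-AS1, and MED31 1227 with TXNDC17. MED1, the contact of nuclear receptors, had 3.22 RPKM in the IP against 3.83 in the Input (76 and 267 reads) and a ratio of 0.841 (0.643 to 1.09). MED26, which recruits elongation factors, had a ratio of 1.61 (0.938 to 2.71), and MED7, MED9, MED10, MED21 and MED31 had ratios from 0.422 to 1.30, also with intervals that include 1.

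SL1, the TBP complex of RNA polymerase I, is formed by TBP and TAF1A to TAF1D. TAF1D had 4.98 RPKM in the IP against 2.86 in the Input (135 and 229 reads) and a ratio of 1.74 (1.398 to 2.16), and its exons hold several snoRNA genes and 250 bases shared with CEP295. TAF1C, just below the filter, had 24 and 31 reads and a ratio of 2.29 (1.29 to 4.03). TAF1A and TAF1B had ratios of 0.985 (0.467 to 1.94) and 0.532 (0.2300 to 1.09). In the TFII-I family, GTF2I had 10.9 RPKM in the IP against 8.84 in the Input (365 and 878 reads) and a ratio of 1.23 (1.08 to 1.39), and GTF2IRD1 1.698 (1.02 to 2.78). GTF2IRD2 had 6 IP reads and 0 Input reads, with a counting interval of the ratio that starts at 3.48, and its near-copy GTF2IRD2B had 12 and 34 reads. Reads of these copies can be assigned to either, so their values are uncertain.

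The genes of this system that the name rule does not take were read from fixed lists of 35 genes, of which 27 passed the filter, 3 at least 2-fold higher and 1 lower (9.88% and 6.83% of all features), with a median log2 ratio of 0.29. Of 14 SAGA genes, 9 passed, and 6 of these had intervals above 1 and 0 below (36.1% and 20.1% of all features). TADA3, an adaptor of the acetyltransferase module, had 14.5 RPKM in the IP against 4.96 in the Input (198 and 200 reads) and a ratio of 2.93 (2.39 to 3.58). ATXN7L3, of the deubiquitinase module, had 4.34 RPKM in the IP against 1.55 in the Input (74 and 78 reads) and a ratio of 2.804 (2.01 to 3.905). These were the SAGA genes past 2-fold, and SGF29 was the lowest at 0.796 (0.505 to 1.22).

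Of the 3 TFIIIB genes, which serve RNA polymerase III, BRF2 had 2.14 RPKM in the IP against 0.533 in the Input (19 and 14 reads). Its ratio was 4.01 (1.91 to 8.65), past 2-fold, but with less than 1 RPKM in the Input it passed the filter only through the IP. BDP1 had a ratio of 2.03 (1.81 to 2.27). Of 4 regulators of TBP, BTAF1, an ATPase that removes TBP from DNA, had the highest ratio, 2.101 (1.59 to 2.77), and TBPL1 the lowest, 0.311 (0.0807 to 0.864), on 4 and 38 reads. Of 9 elongation genes none passed 2-fold. CDK9, the kinase of P-TEFb, was highest at 2.17 (1.52 to 3.08) and SUPT4H1 lowest at 0.575 (0.342 to 0.923). SUPT5H, which forms DSIF with SUPT4H1, had a ratio of 1.78 (1.62 to 1.95), so these partners lay on opposite sides of 1. The partners of CDK9 did not: CCNT1, at 1.07 (0.683 to 1.62), and CCNT2, at 1.30 (0.911 to 1.82), also had ratios above 1, with intervals that include 1.

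Length and base composition moved with the ratio, as a description across genes that share both libraries. Over the 56 genes, log2 exon length and the log2 ratio had a Pearson r of 0.26 (Spearman rho 0.32), against 0.40 and 0.38 over 7625 protein-coding features. In length bands set after the values were seen, of the 28 genes of at least 4000 exon bases, 23 were above 0, and of the 22 genes from 2000 to 4000 bases, 7 were. The filter fixed the sign of some. MED12, MED13L, MED14, MED25, MED26, GTF2IRD1 and TAF1 in the longer band had less than 1 RPKM in the Input. So had GTF2H4 and MED18 in the shorter band, where TAF5 had less than 1 RPKM in the IP. Genes below the filter are not in these bands. The medians of these bands were 0.37 and -0.20, against 0.29 and -0.04 for protein-coding features. The 6 genes under 2000 bases had a median of 0.04, where protein-coding features had -0.41 and 21.5% were at least 2-fold lower. The part of length in the single values was not tested.

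GC content of the main transcript and the log2 ratio had a Pearson r of 0.42 (Spearman rho 0.40) over the 56 genes, and 0.24 and 0.27 over 7595 protein-coding features. All 12 genes above 55% GC that passed the filter had log2 ratios above 0, against 71.4% of protein-coding features. The bound was chosen after the values were seen. Among them, GTF2H4, GTF2IRD1, MED25 and MED26 had less than 1 RPKM in the Input, so the filter fixed their sign. TAF6L and TAF1C, also above 55% GC, fell below the filter, with a log2 ratio below 0 for TAF6L and above 0 for TAF1C. Of the 11 genes below 40% GC, 5 were above 0 (45.5%), against 44.0%. The GU-rich pentamers TGTGT and GTGTG, counted on the transcript strand with overlaps allowed, had an r of -0.09 and a rho of -0.25 with the log2 ratio over the 56 genes, and 0.00 and 0.02 over protein-coding features. The median density was 2.42 per kilobase in the 71 genes and 2.48 over all features with a transcript. The part of base composition in the values was not tested.

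**Figure D4:**
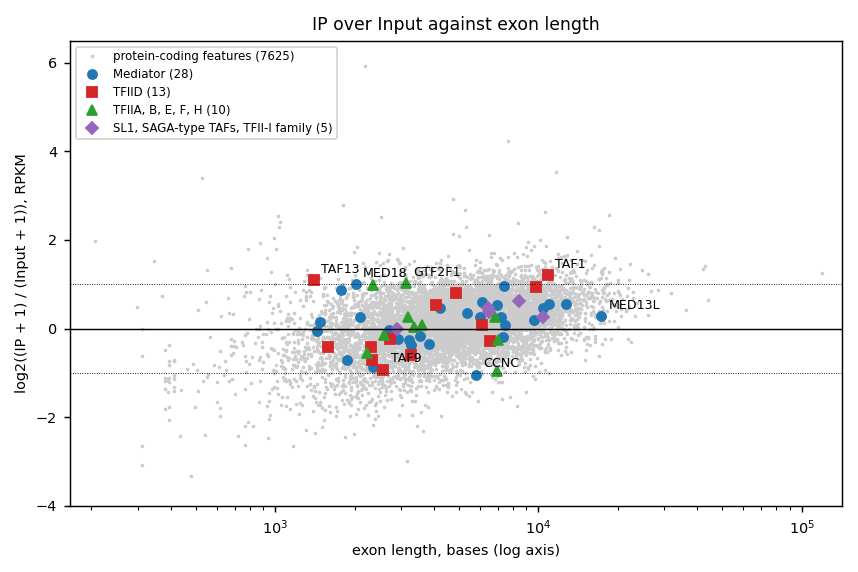
Log2((IP + 1)/(Input + 1)) of RPKM against exon length in bases (log axis) for the 56 genes past the filter, coloured by complex, over 7625 protein-coding features past the same filter (grey). Dotted lines mark 2-fold; long genes lie mostly above 0, while TAF13, of 1400 bases, lies above the upper line and CCNC below the lower one.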

How the data were processed

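One IP and one Input library of HUH7 cells were compared. Per the file headers, the authors deposited an RPKM value for each library and the log2 fold change between them. FastQC 0.12.0 and the build hg38 appear in the submitters' processing notes. Which aligner, counter and gene models were used is not given in the sources used here.

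Whole reads and gene lengths were solved from the RPKM values and the deposited log2 fold change for 14913 of 14914 features (tolerance 0.01 reads). The recovery was tested on simulated reads of 14904 features and returned 100% of them. The depth, 3220045 and 9517885 reads, sets the precision. Lengths equalled the exon union of GENCODE 29 for 65 of the 71 genes. Ratios carry an exact conditional (Clopper-Pearson) 95% interval and shares a Wilson interval, computed with scipy 1.17.1. Exon overlaps came from bedtools 2.31.1.

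The measure was log2((IP + 1)/(Input + 1)), with a mean of at least 1 RPKM and a 2-fold threshold. The fixed rule named CSTF2, every gene past 2-fold, the highest and lowest of each subgroup, and paralog pairs. Other subunits were named to order a complex by its parts. The members and lists were chosen with earlier results of these data known. Alternatives were other pseudocounts, filters, thresholds, centring and read minimums. One transcript per gene was used (principal, then longest). Sequence after the annotated end was not used here.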

Additional observations from a re-analysis of the deposited data

How the results depend on the processing

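With pseudocounts of 0.1 and 5 RPKM, 8 and 0 of the 56 genes were at least 2-fold higher (main value 4) and 5 and 0 at least 2-fold lower (main value 1). With a mean of at least 5 RPKM, which left 14 genes, 2 were higher and 1 lower. Centred on the median of all features, 1 was higher and 4 were lower. At 1.5-fold, 11 were higher and 7 lower, and at 4-fold 0 and 0. The same settings give 18.5%, 1.88%, 9.35%, 6.92%, 26.0% and 1.53% higher and 10.4%, 2.99%, 11.6%, 9.55%, 15.02% and 1.51% lower among all features, in the order named. The counts did not change with at least 20 reads, with no filter, or without the members that share exon bases with another listed feature, a setting chosen after the data were seen.

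The median log2 ratio of all members (0.17) was 0.23 and 0.077 with the 2 pseudocounts, 0.077 with no filter, 0.056 with a mean of at least 5 RPKM, -0.0053 centred and 0.23 without sharing members. That of Mediator (0.23) was 0.35 and 0.090 with the pseudocounts, -0.026 at 5 RPKM and 0.052 centred. That of TFIID (-0.23) was 0.16 at 5 RPKM and -0.40 centred. That of TFIIA, TFIIB, TFIIE, TFIIF and TFIIH (0.06) was -0.076 with no filter, 0.23 at 5 RPKM, -0.11 centred and -0.029 without sharing members. Fewer genes remain under the stricter filter, and the cause of the other changes was not tested. Medians of a complex are therefore not fixed in sign by these data. No paired analysis was possible because each group has 1 library. At a median of 42 IP reads for the genes that passed, depth limits most single ratios.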

Other observations

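Among the names left out by the rule, TAF15, an RNA-binding protein of the FET family rather than a stable TFIID subunit, had 84 and 460 reads in the IP and Input and a ratio of 0.540 (0.423 to 0.682). The pseudogenes GTF2IP13, GTF2IP4 and GTF2IRD1P1 had 6 and 2, 9 and 15, and 4 and 3 reads, with ratios of 8.87 (1.59 to 89.8), 1.77 (0.684 to 4.33) and 3.94 (0.667 to 26.9). Their sequences resemble GTF2I and GTF2IRD1, so reads can be shared with those genes. The antisense genes MED4-AS1 and TAF1A-AS1 had 8 and 19, and 2 and 15 reads, and ratios of 1.24 (0.471 to 2.98) and 0.394 (0.0437 to 1.69), both with intervals that include 1.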
